A study of Mus musculus with 96 samples.

Results

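Wells treated under the caspase inhibitor labels ZVAD and Caspase-1 were compared with the vehicle label DMSO in mouse macrophages given lipopolysaccharide (LPS). The libraries were chosen by their labels alone: wells E to H of plates 1 and 2 carrying the treatment ZVAD, Caspase-1 or DMSO, which gave 24 of the 96 libraries of the series, 8 for each label. All 3 groups were macrophages grown from the bone marrow of male wild-type C57BL/6 mice aged 8 weeks, in conditioned medium that contained MCSF. The agent was added 30 minutes before LPS and the cells were lysed 4 hours after LPS, so the DMSO wells carry the same stimulus as the inhibitor wells. The 8 NoStim libraries (wells A to D, no LPS) served as the baseline of the LPS response. For the number of mice, the doses and the compound behind the label Caspase-1 nothing is given in the sources used here, so p-values measure the spread between wells, which may be technical. The Caspase-1 label is the name of a treatment and does not mean the gene Casp1.

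Caspases are cysteine proteases that cut after aspartate. Initiator caspases such as caspase-8 and caspase-9 start apoptosis, whereas caspase-1 and caspase-11 (encoded by Casp4 in the mouse) act in inflammasomes, where they release interleukin-1 beta and cut gasdermin D, the pore protein of pyroptosis. ZVAD is the usual short name of a peptide that binds and blocks many caspases at their active site. In LPS-treated macrophages caspase-8 also holds back RIPK1 and RIPK3, the kinases of necroptosis. Inhibition of a protease need not change the messenger RNA of the protease, and the libraries measured RNA only.

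The ZVAD libraries held 299276 to 366376 counts, the Caspase-1 libraries 251364 to 337162 and the DMSO libraries 201162 to 323049. The mean total of the ZVAD wells was 1.22 times that of the DMSO wells (exact permutation within plates, two-sided p = 0.00204, adjusted p = 0.0163 over 8 such tests), and that of the Caspase-1 wells was 1.11 times (adjusted p = 0.15, exact permutation). The ribosomal RNA gene Rn45s took 19.4% ± 4.64 of the counts in DMSO wells (SD, n = 8), 19.6% ± 5.23 in ZVAD wells and 15.3% ± 4.26 in Caspase-1 wells, and the last was 0.790 times DMSO (adjusted p = 0.114, exact permutation). Of the 10 macrophage markers, all had counts in each group. Their summed level was 1801 to 2498 CPM in DMSO, 1822 to 2462 in ZVAD and 2039 to 2976 in Caspase-1 wells. CPM in these marker sums are counts per 1000000 of all counts of a library, whereas levels of single genes use scaled library totals. Markers of other cell types were low but not all absent. The 6 dendritic cell markers summed to 9.94 to 38.9 CPM in DMSO, 9.49 to 30.0 in ZVAD and 12.5 to 35.7 in Caspase-1 wells, with Flt3 and Ccr7 at 0 in all of them. The 7 neutrophil markers reached 15.6, 10.9 and 7.96 CPM in DMSO, ZVAD and Caspase-1 wells, with Elane and Mpo at 0, and the 4 endothelial markers had medians of 7.43, 8.66 and 7.92 CPM in the same order. All 5 mast cell and basophil markers were at 0 in the 3 groups. The summed fibroblast and stroma markers reached 68.2 CPM in 1 or more ZVAD wells against at most 10.6 in DMSO and 3.96 in Caspase-1 wells, and their part in the results was not tested. In bulk wells, fewer cells expressing a gene and less RNA per cell cannot be told apart.

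Wells given ZVAD were not distinguished from DMSO wells at any single gene, whereas wells labelled Caspase-1 differed from DMSO at 144 genes. Of the 4963 genes with enough counts to be tested, 0 passed an adjusted p of 0.05 for ZVAD against DMSO (0% of genes tested, edgeR quasi-likelihood test). At an unadjusted p under 0.05 there were 176 genes (3.55%), and both DESeq2 and limma voom also called 0. For Caspase-1 against DMSO 144 genes passed (2.9% of genes tested), 69 higher (1.39%) and 75 lower (1.51%). All 144 had the same sign on both plates, but they were selected from a fit over both plates, which favours such agreement. Over the 2670 genes at 50 CPM or more, 64.0% had the same sign on both plates. The changes were small: the median size of the 144 was 0.64 on the log2 scale, and 15 exceeded 2-fold. Mean DMSO levels had a median of 302 CPM over the 69 higher genes and 165 over the 75 lower. Over all genes tested it was 53.1 CPM. The shares of called genes in the gene lists below were not matched for level. With RLE scaling in place of TMM the split was 89 higher and 61 lower, and DESeq2 gave 115 higher and 83 lower.

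Fitted alone, plate 1 gave 210 genes for Caspase-1 against DMSO, of which 80 were among the genes called over both plates. Plate 2 alone gave 3, all of them among the genes called over both plates. These counts past a threshold do not show which plate the joint calls came from. Across the 2670 genes at 50 CPM or more, fold changes on the 2 plates had a correlation of 0.402 for Caspase-1, 0.17 for ZVAD and 0.898 for LPS (DMSO against NoStim), each over genes, which are not independent replicates. Leaving out any of the Caspase-1 wells 1E, 1F, 1G or 1H left 70, 80, 51 or 64 genes, and leaving out DMSO wells 1E, 1F or 1H left 72, 80 or 95. The intervals bound what could have been missed in ZVAD: for 88.7% of genes tested the 95% interval of the fold change lay within 2-fold of DMSO, and for 42.9% within 1.5-fold.

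**Figure D1:**
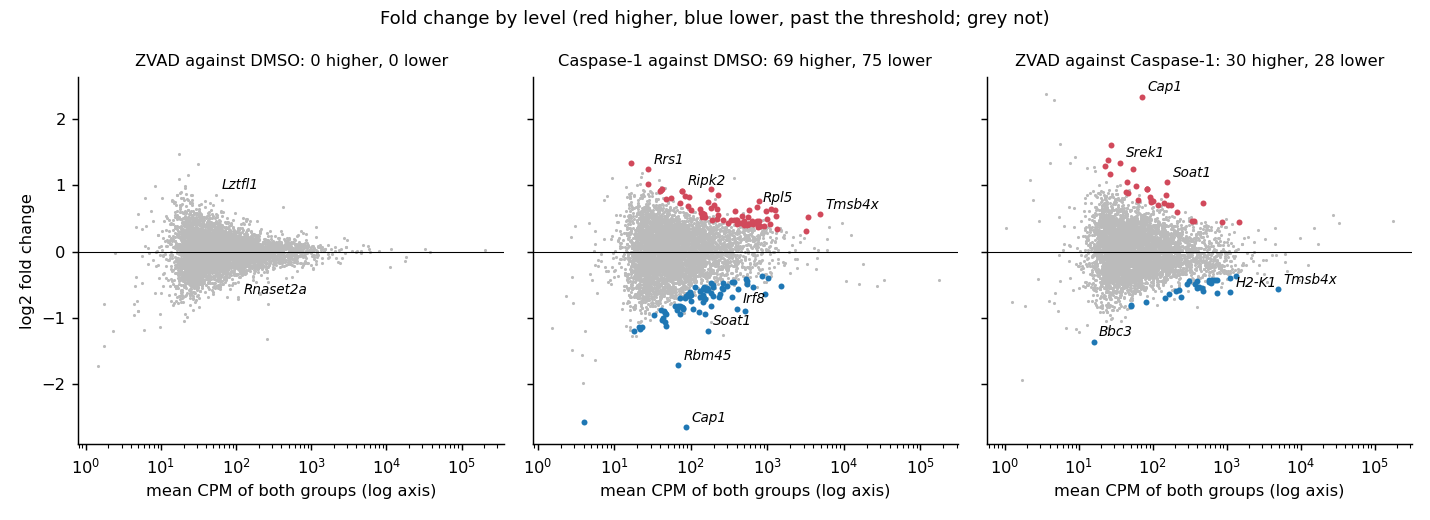
Log2 fold change of each tested gene (vertical) against its mean CPM in both groups (log axis), in 3 panels: ZVAD against DMSO, Caspase-1 against DMSO and ZVAD against Caspase-1. Red points are genes past an adjusted p of 0.05 and higher in the first group, blue points lower, grey points not past it. The first panel has no coloured point, the second 69 red and 75 blue, the third 30 red and 28 blue.

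The lowered genes of the Caspase-1 wells were led by Soat1, the enzyme that esterifies cholesterol for storage, and Irf8, a transcription factor of the macrophage lineage. Soat1 (chr1:156424525-156474331, minus strand, mm10) had a lowest, median and highest level of 59.8, 96 and 134 CPM in Caspase-1 wells, 138, 248 and 325 in DMSO wells and 170, 207 and 266 in ZVAD wells. Every Caspase-1 well lay below every DMSO well and every ZVAD well, while ZVAD and DMSO overlapped. Soat1 fell by 1.2 ± 0.17 on the log2 scale in Caspase-1 wells (SE, adjusted p = 2.05e-07), with fold changes of -1.22 on plate 1 and -1.16 on plate 2. Irf8 (chr8:120736358-120756694, plus strand) had 211, 288 and 328 CPM in Caspase-1 wells, 331, 381 and 478 in ZVAD wells and 382, 508 and 673 in DMSO wells. Here too the Caspase-1 wells did not overlap either other group, and the ZVAD wells sat between, with 5 of the 8 below all DMSO wells. In unstimulated NoStim wells Irf8 had 203, 273 and 344 CPM, a range that held all Caspase-1 wells, and LPS alone had raised it by 0.96 ± 0.13. The Irf8 fold change was -0.86 ± 0.13 in Caspase-1 wells (adjusted p = 1.49e-06) and -0.40 ± 0.13 in ZVAD wells (adjusted p = 0.899).

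A promoter of each of the 2 genes is shown because these genes had the smallest adjusted p for Caspase-1 against DMSO. They run from 250 bases before to 50 after the RefSeq start (GRCm38.p6), 5′ to 3′ on the gene's strand, and capitals mark matches to the GAS motif TTCNNNGAA, which STAT factors bind.
Irf8, chr8:120736108-120736407, plus strand: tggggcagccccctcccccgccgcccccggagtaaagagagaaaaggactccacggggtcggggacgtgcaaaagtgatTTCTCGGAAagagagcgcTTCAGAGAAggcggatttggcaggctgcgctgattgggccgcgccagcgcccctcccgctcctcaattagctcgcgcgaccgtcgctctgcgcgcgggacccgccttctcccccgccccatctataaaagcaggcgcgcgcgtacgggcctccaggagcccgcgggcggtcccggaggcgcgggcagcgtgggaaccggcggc
Soat1, chr1:156474279-156474578, minus strand: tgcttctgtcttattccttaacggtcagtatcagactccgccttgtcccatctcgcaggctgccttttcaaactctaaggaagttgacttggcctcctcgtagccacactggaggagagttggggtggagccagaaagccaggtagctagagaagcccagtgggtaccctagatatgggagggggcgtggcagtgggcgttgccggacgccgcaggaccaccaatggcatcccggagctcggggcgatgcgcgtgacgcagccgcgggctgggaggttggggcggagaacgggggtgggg
The Irf8 window shown held 2 GAS matches and the Soat1 window none. RefSeq gives Irf8 a further start, whose window (chr8:120738389-120738688, not shown) held 0 matches. None of these windows held the interferon-response motif (GAAA, any 2 bases, GAAA) or the NF-kB motif (GGGA, any base, TTTCC) on either strand. Over all 32851 promoters of this length, 8.30% held the GAS letters, 3.44% the interferon-response letters and 0.411% the NF-kB letters. Among 62 promoters of the genes higher in Caspase-1 wells (52 genes) the shares were 6.45%, 8.07% and 0%. Among 77 promoters of the lower genes (59 genes) they were 6.49%, 3.90% and 0%. The interferon-response letters were in 5 of the 62 and 3 of the 77. The 32851 promoters belong to 27025 genes, most of them not tested here, so this is not a background of tested genes. A match is a description of the letters in the window and not of binding.

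Cap1, which encodes a cyclase-associated protein that recycles actin, had the lowest fold change of the named genes. Its lowest, median and highest levels were 9.12, 20 and 46.0 CPM in Caspase-1 wells, 48.2, 119 and 211 in ZVAD wells and 37.2, 166 and 222 in DMSO wells. The DMSO wells were spread widely, and 7 of 8 Caspase-1 wells lay below all of them. Cap1 fell by 2.66 ± 0.44 on the log2 scale (adjusted p = 5.85e-05). Rbm45, an RNA-binding protein, fell by 1.72 ± 0.31 (adjusted p = 0.000418), with 15.1, 36.3 and 42.1 CPM in Caspase-1 and 37.2, 112 and 149 in DMSO wells. Its groups overlapped, with 5 of 8 Caspase-1 wells below all DMSO wells. C5ar2, the second receptor of complement C5a, had 41.5, 59.0 and 68.1 CPM in Caspase-1, 86.8, 108 and 135 in ZVAD and 70.4, 107 and 123 in DMSO wells. The Caspase-1 wells stood below both other groups without overlap, and C5ar2 fell by 0.86 ± 0.20 (adjusted p = 0.00835). Fblim1, an adaptor at cell-matrix contacts, fell by 1.04 ± 0.22 (adjusted p = 0.00274). The signalling adaptor Crkl, the ubiquitin ligase Rnf11, the RNA exonuclease Xrn1 and the transcription factor Mef2a also fell, with log2 fold changes of -1.06 ± 0.26, -1.13 ± 0.28, -1.0 ± 0.29 and -0.94 ± 0.25. The other named lower genes, Cacna1a, Nmrk1, Pclo and Pgap2, lay between -1.18 and -0.95, and Cacna1a and Pclo are better known from neurons. Under 41 alternative analyses the calls of Soat1 and Cap1 held in every one, and those of Rbm45, Fblim1 and Crkl ended only on plate 2 alone. Soat1 and Cap1 were the only 2 lower genes past the threshold on plate 2 alone, so the calls of Irf8 and C5ar2 ended there too. The call of Rnf11 ended also without Caspase-1 well 1H and that of Mef2a without Caspase-1 well 1E or 1H. Those of Pgap2, Nmrk1, Xrn1, Pclo and Cacna1a ended with 6, 8, 9, 9 and 10 of the 24 wells left out in turn. Here and below, the 24 include 8 ZVAD wells, which enter Caspase-1 against DMSO only through the shared scaling and spread. The same holds of the 8 DMSO wells where the 2 labels are compared directly.

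Among the genes raised in Caspase-1 wells, Ripk2, the kinase that carries signals from the NOD receptors, had 85.2, 87.7 and 147 CPM (lowest, median and highest), against 26.6, 51.1 and 89.8 in DMSO and 65.9, 79.0 and 116 in ZVAD wells. Only 3 of 8 Caspase-1 wells lay above all DMSO wells. Ripk2 rose by 0.92 ± 0.21 (adjusted p = 0.00573), and its fold change in ZVAD wells was 0.60 ± 0.21 (adjusted p = 1). Atp6v0e, a small subunit of the vacuolar proton pump, rose by 0.86 ± 0.17 (adjusted p = 0.000527), with 192, 228 and 540 CPM in Caspase-1 and 126, 147 and 243 in DMSO wells. H2-K1, a classical class I major histocompatibility molecule, had 1090, 1376 and 1650 CPM in Caspase-1, 686, 862 and 1105 in ZVAD and 714, 851 and 1059 in DMSO wells. All 8 Caspase-1 wells were above all DMSO wells, and H2-K1 rose by 0.64 ± 0.12 (adjusted p = 0.000527). Its near-identical relatives make the split of its reads uncertain. Tmsb4x, the actin-monomer binder thymosin beta 4, rose by 0.56 ± 0.11 (adjusted p = 0.00143) from 3272 to 5195 CPM in DMSO to 4236 to 7260 in Caspase-1 wells, with 5 of 8 wells above all DMSO wells, and it has processed pseudogenes that could take reads.

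The remaining raised genes of the naming rule were scattered over several processes. Rrs1, a ribosome assembly factor, rose by 1.24 ± 0.34, and Mxd3, a partner of MAX, by 1.03 ± 0.30. Sptlc2, a subunit of the first enzyme of sphingolipid synthesis, rose by 0.93 ± 0.26, the translation initiation subunit Eif3g by 0.91 ± 0.22 and the lipid carrier Stard7 by 0.82 ± 0.21. Stard7 differed between plates, at 1.35 on plate 1 and 0.26 on plate 2. Rgl1, Hnrnpul2, Ndufc1 and Dcun1d5 had log2 fold changes of 0.80 to 0.95, and Hnrnpul2 had 1 or more Caspase-1 wells at 610 CPM around a median of 146. Calls of Ripk2 and Atp6v0e ended only on plate 2 alone. Eif3g ended its call also without Caspase-1 well 1F, Stard7 without DMSO well 1F or Caspase-1 well 1G, and Rrs1 without DMSO well 1E or 2G or Caspase-1 well 1G or 1H. For Rgl1, Sptlc2 and Hnrnpul2 the call ended with 7, 8 and 8 of the 24 wells left out in turn. Those of Mxd3, Ndufc1 and Dcun1d5 ended when same-named wells of the 2 plates were summed and when 10 or 11 of the 24 wells were left out in turn.

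**Figure D2:**
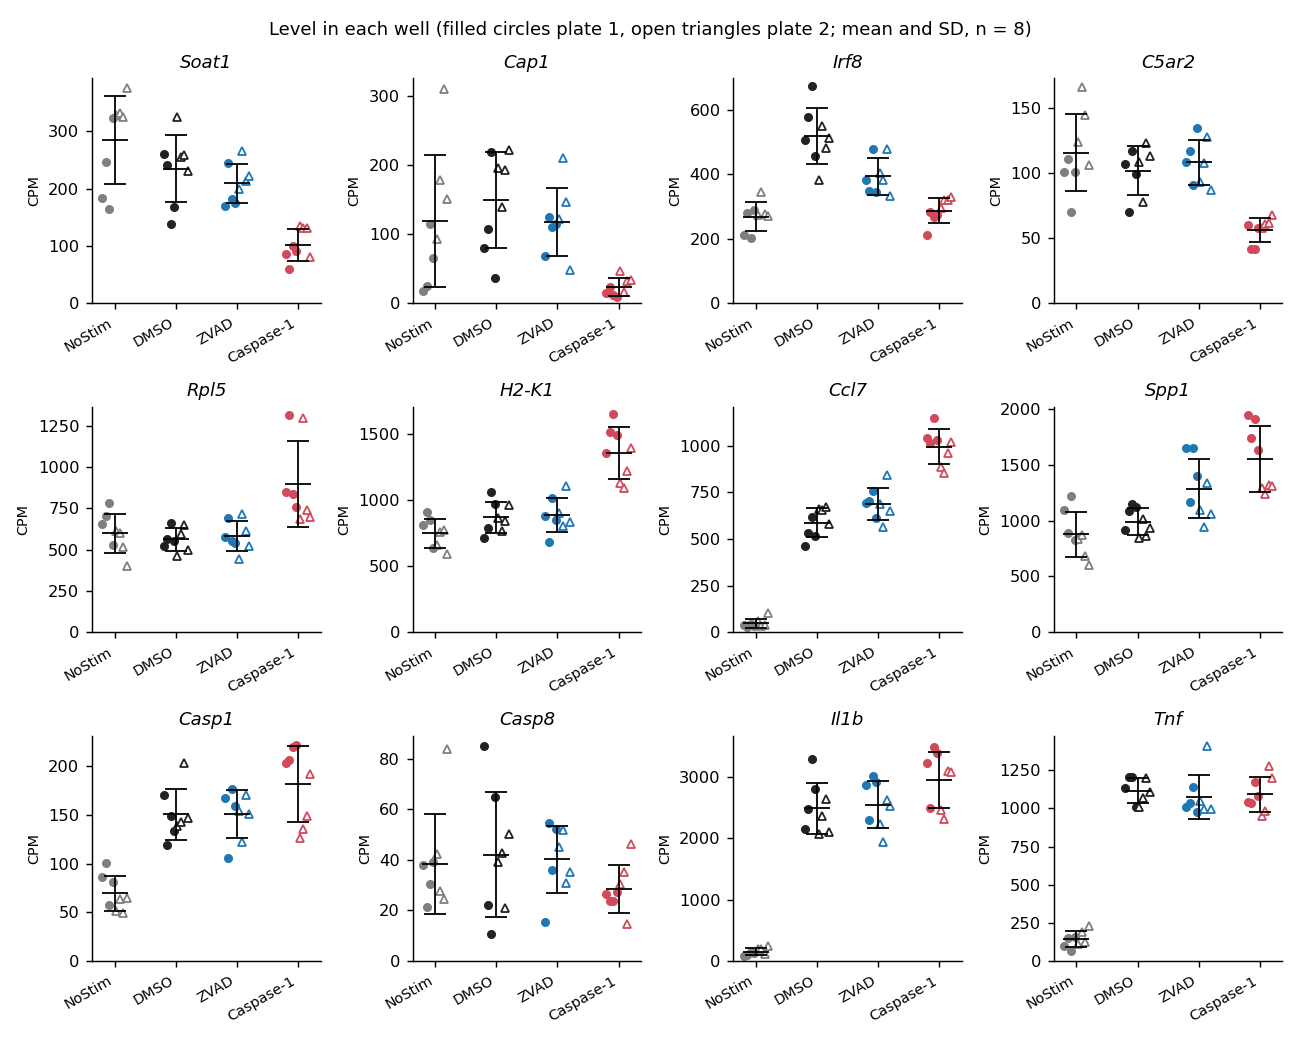
CPM of 12 genes in each well of the NoStim, DMSO, ZVAD and Caspase-1 groups (horizontal), with filled circles for plate 1, open triangles for plate 2, and the mean and SD of the 8 wells. The Caspase-1 wells of Soat1, Irf8 and C5ar2 lie below all DMSO wells, whereas those of Cap1 and Casp1 overlap with them.

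No gene was past the threshold in ZVAD wells, and the 6 named genes of smallest p are given as values only. Lztfl1, a regulator of ciliary transport, had 52.4, 64.4 and 87.6 CPM in ZVAD wells, 40.0, 46.9 and 72.8 in Caspase-1 wells and 18.6, 40.6 and 53.3 in DMSO wells. Of the ZVAD wells 6 lay above all DMSO wells, and the fold change was 0.86 ± 0.22 with an interval from 0.42 to 1.3 (adjusted p = 0.414). Mmp12, the macrophage elastase, had a fold change of 0.78 ± 0.23 (adjusted p = 0.805). On the other side were Rnaset2a, a lysosomal ribonuclease, at -0.72 ± 0.20, the early response gene Ier3 at -0.69 ± 0.21, Luzp1 at -0.62 ± 0.18 and the translation factor Eif5a at -0.46 ± 0.14. Their adjusted p values were 0.633, 0.805, 0.805 and 0.805. Rnaset2a had 62.1, 75.5 and 98.9 CPM in ZVAD and 69.6, 107 and 241 in DMSO wells, which overlapped. Eif5a and Rnaset2a have near-identical copies, so their counts are uncertain.

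With the 16 ZVAD and Caspase-1 wells pooled against DMSO, 6 genes passed (0.121% of genes tested), 1 higher (0.0201%) and 5 lower (0.101%). Spp1, the secreted phosphoprotein osteopontin, was the higher one. It had 1238, 1478 and 1951 CPM in Caspase-1, 943, 1253 and 1657 in ZVAD and 846, 978 and 1147 in DMSO wells. All 8 Caspase-1 wells and 5 of 8 ZVAD wells lay above all DMSO wells. Irf8, Soat1, Rbm45, Cap1 and Luzp1 were the lower ones, and the pooled Irf8 fold change was -0.63 ± 0.11 (adjusted p = 0.000207). For Soat1 and Cap1 the pooled value joined unlike values: Soat1 was -1.2 in Caspase-1 and -0.15 in ZVAD wells, and Cap1 was -2.66 and -0.32. Luzp1 alone had similar values in both, at -0.67 and -0.62, and its adjusted p of 0.0476 lost the threshold in 24 of 41 alternatives. The pooled calls of Soat1 (without DMSO well 2E), Cap1 (5 of 24 wells left out in turn), Spp1 (7 wells) and Rbm45 (8 wells) also depended on single wells. The pooled count was 0 on plate 2 alone and ranged from 1 without DMSO well 2E to 11 without Caspase-1 well 2G. It was 2 without ZVAD well 1E, 3 without DMSO well 1G or Caspase-1 well 1H, and 10 without ZVAD well 1F, ZVAD well 2F or Caspase-1 well 2F.

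Compared directly, ZVAD and Caspase-1 wells differed at 58 genes (1.17% of genes tested), 30 higher in ZVAD wells (0.604%) and 28 lower (0.564%). Soat1 was higher in ZVAD wells by 1.05 ± 0.17 (adjusted p = 1.74e-05), Cap1 by 2.34 ± 0.44, C5ar2 by 0.95 ± 0.19 and Irf8 by 0.46 ± 0.13, so for these genes the difference between the labels itself passed. H2-K1 was lower in ZVAD wells, with -0.62 ± 0.12 (adjusted p = 0.00145), as were Tmsb4x, with -0.57 ± 0.11, and Atp6v0e, with -0.69 ± 0.16. Srek1, a regulator of splicing, passed in this comparison only, on either side of DMSO: its median was 51.0 CPM in ZVAD, 32.2 in DMSO and 21.8 in Caspase-1 wells. ZVAD and Caspase-1 wells did not overlap for Srek1, whose fold change between them was 1.34 ± 0.26 (adjusted p = 0.00129), while its values against DMSO were 0.55 ± 0.25 in ZVAD (adjusted p = 1) and -0.79 ± 0.29 in Caspase-1 wells (adjusted p = 0.0997). Ripk2, Spp1 and Ccl7 did not pass between the labels, at -0.31 ± 0.19, -0.26 ± 0.13 and -0.53 ± 0.16, with intervals from -0.69 to 0.06, -0.51 to -0.01 and -0.85 to -0.21. The count was 151 on plate 1 and 0 on plate 2. It fell to 14, 15, 18 or 20 without Caspase-1 well 1F, 1G, 1H or 1E. Without ZVAD wells 1E, 1F, 1G, 1H, 2E or 2F it was 35, 25, 20, 23, 38 or 23.

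The transcripts of the caspases themselves did not pass in either group. Of 10 genes (9 caspases and Cflar, the caspase-8 regulator that lacks protease activity) 4 had enough counts to be tested, 0 passed, and their median log2 fold change was -0.15 in Caspase-1 and -0.03 in ZVAD wells, beside 0.01 and 0.00 over all genes. Casp1 had 126, 198 and 222 CPM in Caspase-1, 106, 157 and 176 in ZVAD and 119, 145 and 203 in DMSO wells, which overlap. Its fold change was 0.27 ± 0.15 in Caspase-1 wells (interval -0.03 to 0.57, adjusted p = 0.328), made of 0.59 on plate 1 and -0.07 on plate 2, and 0.01 ± 0.15 in ZVAD wells (interval -0.30 to 0.31). Casp4 was at -0.10 ± 0.15 and -0.03 ± 0.15. Casp8 had a median of 26.9 CPM in Caspase-1, 40.4 in ZVAD and 40.8 in DMSO wells, and its fold change of -0.51 ± 0.30 has an interval that reaches from -1.10 to 0.09. Cflar was high in all groups, with medians of 1553, 1638 and 1715 CPM in Caspase-1, ZVAD and DMSO wells. LPS alone had raised Casp1, Casp4 and Cflar in DMSO against NoStim wells. Among those too low to test were Casp6, Casp9, Casp2 and Casp12. Casp9, the initiator of the mitochondrial pathway, had 9 counts over the 8 DMSO wells, 2 over the ZVAD wells and 6 over the Caspase-1 wells.

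Of the inflammasome and interleukin-1 genes 10 of 18 were tested, and Nek7, the kinase that licenses NLRP3, was the only one past the threshold in Caspase-1 wells. Nek7 had 73.0, 113 and 178 CPM in Caspase-1, 108, 168 and 229 in ZVAD and 110, 174 and 259 in DMSO wells, with 4 of 8 Caspase-1 wells below all DMSO wells. It fell by 0.66 ± 0.17 (adjusted p = 0.0206). The call ended on plate 2 alone, without Caspase-1 well 1H, when same-named wells were summed (adjusted p = 0.0544) and with the Rn45s share as a covariate. Il1b, the cytokine precursor that caspase-1 cuts, had 2312, 3092 and 3490 CPM in Caspase-1, 1935, 2571 and 3016 in ZVAD and 2060, 2414 and 3297 in DMSO wells. The groups overlap, and the fold changes were 0.24 ± 0.13 (interval -0.01 to 0.50) and 0.03 ± 0.13 (interval -0.22 to 0.29). Nlrp3, the sensor itself, was at 0.23 ± 0.15 in Caspase-1 and -0.05 ± 0.15 in ZVAD wells. The median of the 10 genes was 0.24 in Caspase-1 and 0.02 in ZVAD wells.

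The death receptor and necroptosis genes gave 0 of 14 tested (18 listed) in either group, with medians of 0.08 in Caspase-1 and 0.04 in ZVAD wells. Fadd, the adaptor that brings caspase-8 to death receptors, came nearest, at -0.80 ± 0.28 in Caspase-1 wells (adjusted p = 0.078), with medians of 20.2 CPM in Caspase-1, 31.9 in ZVAD and 39.9 in DMSO wells. Tnf, the LPS-induced ligand of this pathway, had medians of 1061, 1024 and 1120 CPM in Caspase-1, ZVAD and DMSO wells. Its fold changes were -0.03 ± 0.12 (interval -0.28 to 0.21) and -0.06 ± 0.12 (interval -0.30 to 0.19), so changes beyond about 1.5-fold lie outside both intervals. The necroptosis kinase Ripk3 and the pore protein Mlkl were too low to test, with 23 and 50 counts over the 8 DMSO wells.

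**Figure D3:**
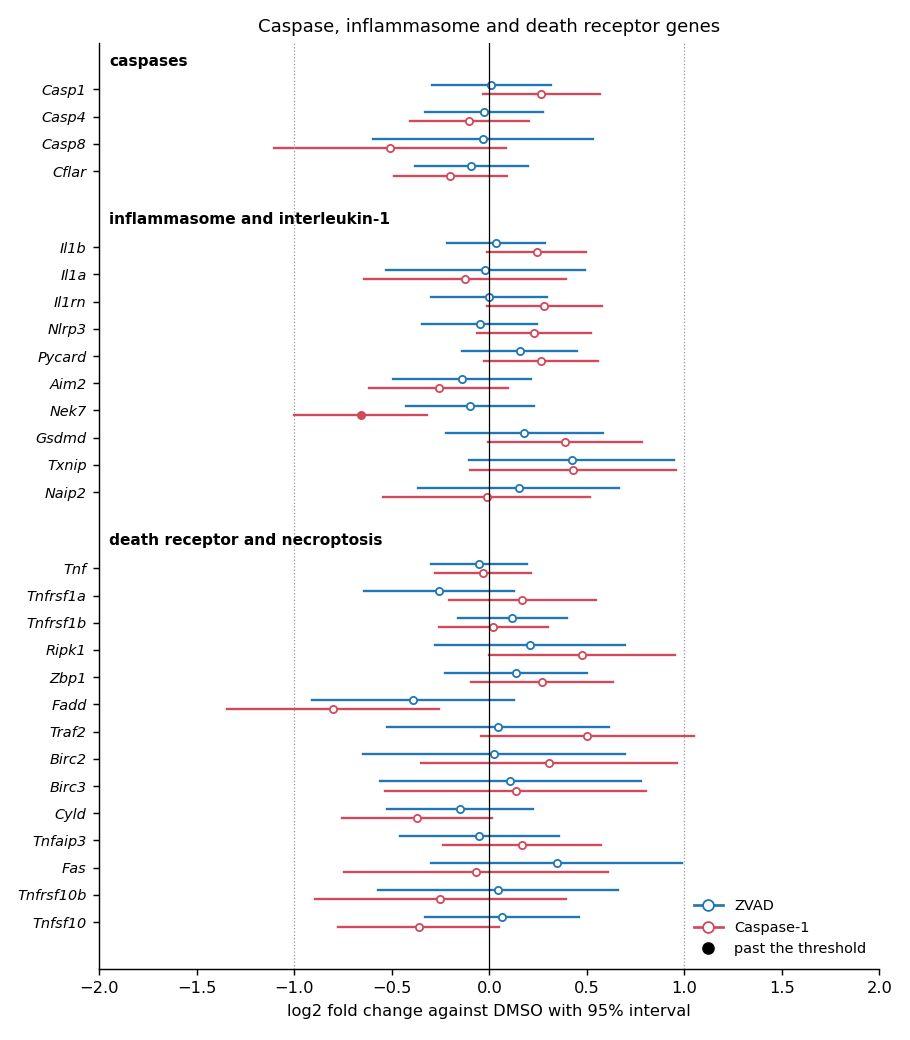
Log2 fold change with its 95% interval for the 28 tested genes of the caspase, inflammasome and interleukin-1, and death receptor and necroptosis lists, in ZVAD and in Caspase-1 wells against DMSO. Filled points are past the threshold, open points not, and dotted lines mark 2-fold. Nek7 in Caspase-1 wells is the only filled point; in Caspase-1 wells the intervals of Casp8, Nek7, Fadd and Traf2 reach past 2-fold.

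Of the apoptosis regulators 3 of 13 tested rose in Caspase-1 wells and 0 fell, beside 1.39% higher and 1.51% lower over all genes tested, and all 3 were copies of Bcl2a1, a survival member of the BCL2 family. Bcl2a1b had 373, 558 and 706 CPM in Caspase-1, 259, 368 and 485 in ZVAD and 291, 332 and 552 in DMSO wells, with 4 of 8 Caspase-1 wells above all DMSO wells. It rose by 0.54 ± 0.13 (adjusted p = 0.014), beside 0.55 ± 0.16 for Bcl2a1a and 0.48 ± 0.14 for Bcl2a1d. The 3 copies are nearly identical, so they are not independent of each other and their reads could be split. Bcl2a1a and Bcl2a1d lost the threshold with same-named wells summed (adjusted p = 0.057 and 0.0631) and with 9 and 7 of the 24 wells left out in turn. Between the labels 4 genes of this list were lower in ZVAD wells, these 3 and Bbc3, the pro-apoptotic protein PUMA. The difference in Bcl2a1b lost the threshold without ZVAD well 1F, ZVAD well 2F or Caspase-1 well 1H. Bbc3 was scarce, with medians of 25.9 CPM in Caspase-1, 6.87 in ZVAD and 11.8 in DMSO wells, and a fold change between the labels of -1.36 ± 0.37 (adjusted p = 0.0375) that lost the threshold with 10 of the 24 wells left out in turn.

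Of the 33 inflammatory genes tested (38 listed), of which LPS had raised 31, 4 rose in Caspase-1 wells and 0 fell, beside 1.39% and 1.51% of all genes tested. The median log2 fold change was 0.19, and 0.03 in ZVAD wells. As for the other lists, the shares were not matched for expression level. Ccl7, which with Ccl2 and Ccl3 attracts monocytes, had 852, 1016 and 1149 CPM in Caspase-1, 566, 690 and 844 in ZVAD and 463, 599 and 673 in DMSO wells. No Caspase-1 well overlapped either other group, and Ccl7 rose by 0.76 ± 0.16 (adjusted p = 0.003). Ccl2 rose by 0.61 ± 0.16 (adjusted p = 0.0287), and 7 of 8 wells, at up to 1303 CPM, were above all DMSO wells, whose highest was 886. Ccl3 rose by 0.53 ± 0.15 (adjusted p = 0.0347), with medians of 4061 CPM in Caspase-1, 2852 in ZVAD and 2661 in DMSO wells. The other was the adhesion molecule Icam1, at 0.46 ± 0.13. The Ccl2 call ended without DMSO well 1E or Caspase-1 well 1G, and those of Ccl3 and Icam1 with 8 and 9 of the 24 wells left out in turn. In ZVAD wells Ccl2 and Ccl7 were at 0.27 ± 0.16 and 0.23 ± 0.16, neither past the threshold. The interferon genes, all 29 of which LPS had raised, gave 0 calls and medians of -0.01 in Caspase-1 and -0.06 in ZVAD wells.

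Of 21 cathepsin and lysosome genes 3 rose in Caspase-1 wells (1.39% of all genes did) and 0 fell (1.51%), with a median of 0.21, and 0.03 in ZVAD wells. Among them, the cysteine cathepsins Ctss and Ctsl rose by 0.42 ± 0.11 and 0.40 ± 0.11 (adjusted p = 0.0238 and 0.0347). All 8 Caspase-1 wells of Ctss, at 1104 to 1414 CPM, lay above the highest DMSO well at 1069. With same-named wells summed the adjusted p was 0.0543 for Ctss and 0.0758 for Ctsl. The Ctss call ended without DMSO well 1F, Caspase-1 well 1G or Caspase-1 well 1H, and that of Ctsl with 7 of the 24 wells left out in turn.

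All 13 listed ribosomal protein genes had fold changes above 0 in Caspase-1 wells, as did 51.0% of all genes tested, with a median of 0.26. Rpl5 and Rps20 passed, 2 of 13 beside the 1.39% of all genes that rose. Rpl5 had 686, 798 and 1316 CPM in Caspase-1, 443, 565 and 714 in ZVAD and 460, 559 and 659 in DMSO wells. No Caspase-1 well overlapped DMSO, and Rpl5 rose by 0.67 ± 0.12 (adjusted p = 0.000322). Over all 85 tested symbols that begin with Rpl or Rps, a set chosen after its values were seen, 12 rose and 1, Rpl6, fell (1.39% and 1.51% over all genes), with a median of 0.24 in Caspase-1 and 0.07 in ZVAD wells. These genes have many pseudogenes, and the Rn45s share of the same wells was lower, as given above. Single genes rose in 3 further lists: the chaperone Hspa8 (0.39 ± 0.10), the peroxidase Prdx1 (0.49 ± 0.13) and the phosphatase Dusp2 (0.46 ± 0.13). The autophagy (7 tested), unfolded protein response (11), glycolysis and hypoxia (13) and cell cycle (8) lists had 0 calls in either group. Of 9 tested macrophage markers Cd14, the LPS co-receptor, was the only one to pass, at 0.42 ± 0.12 in Caspase-1 wells, and Cd14 and Emr1 (F4/80) were lower in ZVAD than in Caspase-1 wells, with -0.46 ± 0.12 and -0.49 ± 0.14. The calls of Rps20, Prdx1, Dusp2 and Cd14 in Caspase-1 wells ended with 8, 5, 5 and 11 of the 24 wells left out in turn, and that of Hspa8 held in all 24.

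**Figure D4:**
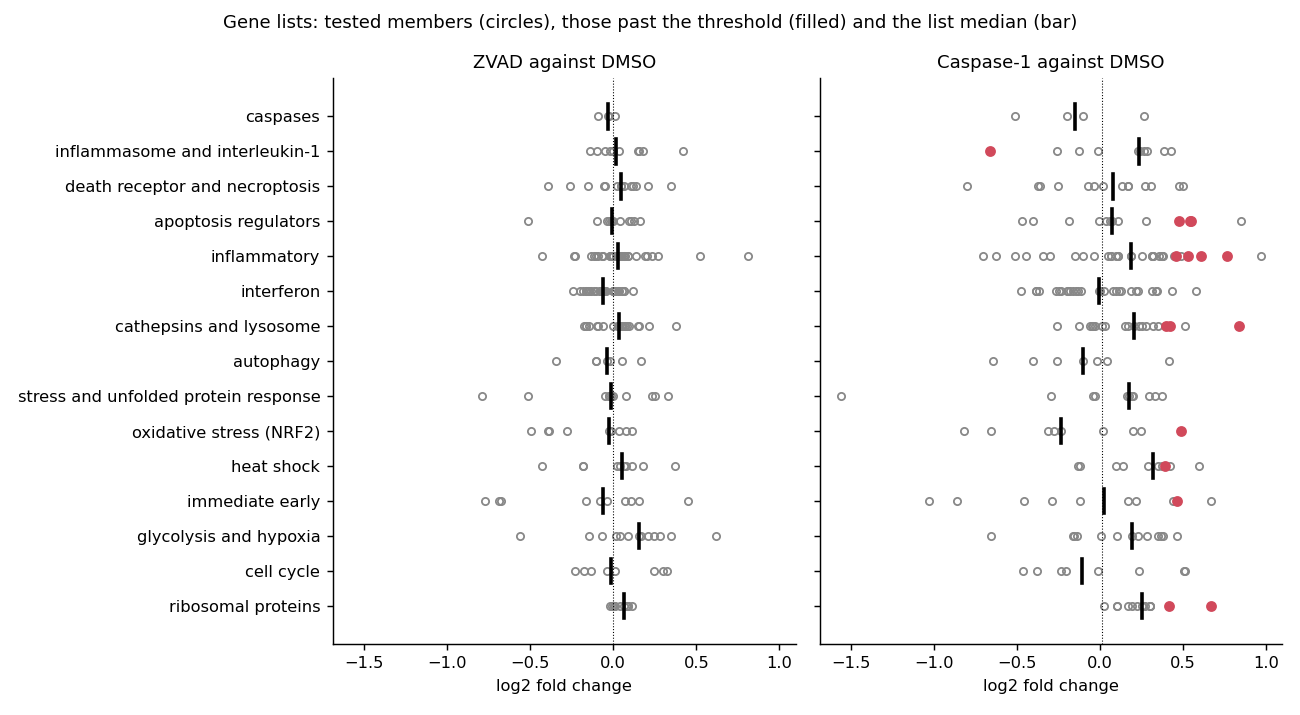
Log2 fold change of every tested member of 15 gene lists, in ZVAD (left) and Caspase-1 wells (right) against DMSO. Open circles are genes not past the threshold, filled circles genes past it, black bars list medians, and the dotted line is the median of all genes. The left panel has no filled circle, and in the right panel all filled circles but Nek7 lie to the right of 0.

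The genes that changed in Caspase-1 wells differed in transcript length. The longest annotated transcript had a median of 1874 bases for the 69 higher genes and 4323 for the 75 lower ones, against 3580 over the 4935 tested genes with a length. With the genes in 5 bins of equal size, from the shortest to the longest the median log2 fold change in Caspase-1 wells went from 0.19 through 0.09, 0.01 and -0.08 to -0.18, and in ZVAD wells from 0.05 to -0.04. The shortest bin held 37 of the higher and 9 of the lower genes, the longest 3 and 27. The share of genes with transcripts of 3000 bases or more was taken over the counts of tested genes with a length, without Rn45s and Lars2. It was 45.0% to 51.7% in the Caspase-1 libraries (median 48.0%), 46.9% to 52.4% in the ZVAD libraries (median 50.7%) and 47.2% to 52.1% in the DMSO libraries (median 51.0%). With an offset for length fitted in each library, an alternative added after the data were seen, 86 genes passed for Caspase-1 against DMSO, 38 higher and 48 lower, and 73 of them were among the 144. Soat1, Cap1, Irf8, Rbm45, Nek7, Ccl7, Ctsl and Rpl5 were still past the threshold, Soat1 at an adjusted p of 8.94e-07. Ccl2 (adjusted p = 0.0681), Ccl3 (0.123), Icam1 (0.0727), Ctss (0.078), Cd14 (0.116), Dusp2 (0.108) and Bcl2a1a, Bcl2a1b and Bcl2a1d (0.17, 0.0817 and 0.213) were not. Of the 12 raised symbols that begin with Rpl or Rps, only Rpl5, Rps15a and Rps20 still passed with the offset, and Rpl6 was still lower. Between the labels 45 genes passed with the offset, and Cd14 (0.0592), Emr1 (0.0504) and Bcl2a1a, Bcl2a1b and Bcl2a1d (0.102, 0.0568 and 0.147) were not among them. The part of length in each result was not tested further.

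**Figure D5:**
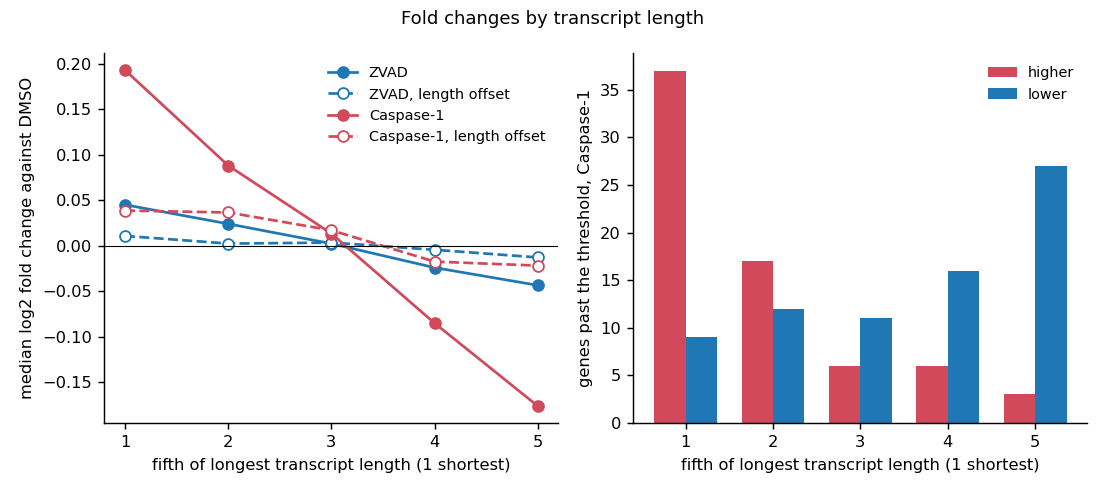
Median log2 fold change over genes in 5 bins of longest transcript length, with and without an offset for length, for ZVAD and Caspase-1 wells against DMSO, and the number of genes past the threshold in each bin for Caspase-1. The Caspase-1 median falls from 0.19 in the shortest bin to -0.18 in the longest, and with the offset from 0.04 to -0.02.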

How the data were processed

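The 96 libraries were 3′-end digital expression libraries (modified SCRB-Seq with Nextera) of mouse macrophages, 8 for each of 12 groups, 4 wells on each of 2 plates. Reads were aligned with BWA to mm10, per the submitters' processing notes. The authors deposited whole-number counts per gene symbol, and for the annotation, strand and any collapsing of molecular identifiers nothing is given in the sources used here. The members, gene lists and tests were chosen with earlier results of these data known.

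Of 23481 symbols 7459 had no count and 4963 passed edgeR's filterByExpr. Counts were fitted with edgeR 4.0.16 (R 4.3.3; TMM scaling, robust quasi-likelihood, group and plate as terms) over all 96 libraries, which share 1 estimate of spread, with Benjamini-Hochberg adjustment over all genes tested and a threshold of 0.05. Fold changes are log2, ± SE (the fold change over the square root of F) with 95% intervals. CPM of single genes are per 1000000 of library totals scaled by TMM. The marker sums use the unscaled totals, Rn45s included. Named genes were, in each comparison, up to 12 of the highest and 12 of the lowest log2 fold changes past the threshold with 1 sign on plate 1 and plate 2 and at least 30 CPM on average in whichever group was higher, the 6 of smallest p where fewer than 6 passed, those past the threshold in the gene lists, and key members of the caspase lists; Icam1, Cd14, Bcl2a1d, Rpl6 and Emr1 were named because the counts called for it. Totals and Rn45s shares were compared by exact permutation within plates. DESeq2 1.42.0, limma 3.58.1 and 39 further settings were alternatives. Wells of the same letter on 1 plate had deviations with a mean correlation of 0.0921 across groups (24 pairs, lowest -0.0737; -0.0307 for other letters), short of a correlation in every pair, so no block was used. Wells of the same label and letter on the 2 plates did deviate together (12 pairs, mean 0.215, lowest 0.0349; -0.0708 for other letters), so the 8 wells of a group may not be independent, and their sums were an alternative that gave 78 in place of 144 genes for Caspase-1 against DMSO. Scripts were tested on simulated data. Planned tests of the mitochondrially encoded share were not run, as no symbol of the deposited counts begins with mt-. Some genes that the lists hold are not reported here.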

Additional observations from a re-analysis of the deposited data

Results flagged for a closer look

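The sets of 8 wells checked covered part of the described genes, library totals, numbers of genes with a count and Rn45s shares, in each group. Hnrnpul2 and many other described genes were not checked. Among the 102 sets, 7 had a well set apart from the other 7 by Dixon's criterion, where chance alone flags about 1 set in 20. In Caspase-1 wells these were Ccl2 in well 2F, lowest at 794 CPM beside 1130 to 1303 in the others, and Rnaset2a in the same well 2F, lowest at 77.2 CPM beside 117 to 128. In ZVAD wells they were Ripk2 in well 1G, highest at 116 CPM beside 65.9 to 86.6, and Tnf in well 2G, highest at 1406 CPM beside 975 to 1141. In DMSO wells they were Ccl3 in well 1G, highest at 3831 CPM beside 2302 to 3010, Cflar in well 2G, highest at 2104 CPM beside 1603 to 1809, and the Rn45s share in well 1G, lowest at 9.43% beside 17.8% to 23.7%. The highest Ccl3 level in DMSO wells came from the well with the lowest Rn45s share.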

How the results depend on the processing

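ZVAD against DMSO gave 0 genes under every alternative run. For Caspase-1 against DMSO the 144 genes became 59 without the plate term, 86 without the filter on low counts, 3 on plate 2 alone, 334 with only the 24 libraries of the 3 groups, 78 with same-named wells summed, 78 with the Rn45s share as a covariate and 86 with transcript length as an offset; the share of higher genes in the calls was 29 of 78 with summed wells and 25 of 78 with the covariate. A replicate block on well letters over the 88 libraries given LPS called 232, 10 for both labels together and 88 between the labels, and the wells share only a letter. Both labels together gave 1 gene without the plate term, 0 on plate 2 alone, 36 with only the 24 libraries, 1 with summed wells, 3 with limma voom, and 10 without robust fitting, without Tunicamycin well 2F or with the length offset. Between the labels the 58 became 10 without the plate term, 151 on plate 1 alone, 0 on plate 2 alone, 177 with only the 24 libraries, 31 with summed wells and 34 with the covariate. With 1 well left out in turn the counts ranged from 0 to 0 for ZVAD, 51 to 198 for Caspase-1, 1 to 11 for both and 14 to 68 between the labels. The causes were not tested. For named genes 4892 results stayed on their side of the threshold, 762 lost it, 3 gained it and 0 reversed. Many of these results were of genes not past the threshold in the main fit, such as those named for ZVAD. Such genes could not lose it, so the counts do not measure how stable the calls were. The total count of ZVAD over DMSO was 1.25 on plate 1, 1.2 on plate 2 and 1.22 with summed wells, and that of both labels 1.19, 1.15 and 1.17. None of these passed (adjusted p of 0.121 to 0.343, exact permutation). For ZVAD over DMSO, 70 arrangements of 4 against 4 allow no p below 0.0286 before adjustment over 8 tests. It reached that value on plate 2 and with summed wells, so for ZVAD the loss says nothing about stability. Both labels together set 8 values against 4, which gives more arrangements, so this limit does not apply to their loss. With 1 well left out the ratio of both labels over DMSO was 1.13 to 1.21 and missed the threshold without DMSO well 1E or 2E. The Rn45s share of Caspase-1 over DMSO was 0.736 to 0.828 and passed (adjusted p = 0.018, exact permutation) without DMSO well 1G, and that of ZVAD over Caspase-1 was 1.22 to 1.35 and passed (adjusted p = 0.0348, exact permutation) without ZVAD well 2G. The width of the intervals limits what could be seen: for ZVAD against DMSO the median gene had a 95% interval of 0.47 on either side. The parts of depth and of spread between wells in this width were not tested.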
